A study of Xenopus laevis with 4 samples.

Results

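The bone morphogenetic protein (BMP) pathway was followed in early embryos of the frog Xenopus laevis. It was read from 79 of the 45098 gene rows measured, matched by gene symbol. They cover BMP ligands and, outside the cell, the tolloid-like proteases, sizzled and bmper. They also cover receptors of the BMP, activin and TGF-beta types, Smads, and the target families ventx, msx and id. The 79 rows carry 43 distinct symbols, since most genes of this species exist as an L and an S copy (homeologs) that descend from 2 parental genomes. Matching by symbol found no row for smad3, smad4, smad5, id1, id3, ventx2, bmp1 or the smurf genes, which are not analysed here.

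TKD embryos (triple knockdown, 2 samples) had been injected at the 1-cell stage with antisense oligonucleotides against the mRNAs of TBP, TBP2 and TLF, the TATA-binding protein family of transcription initiation factors. Control embryos (2 samples) had received water. The labels give 0.8 ng of the antisense mixture for TKD embryos. The study's methods give a separate dose for each oligonucleotide instead, so the total dose is uncertain. No sample received a control oligonucleotide, so in these data effects of injecting any oligonucleotide cannot be told apart from those of the knockdown. For the specificity of the reagents the study refers to control oligonucleotides and rescue experiments of earlier work. Each sample was a pool of 10 whole embryos, labelled as collected at stage 10.5. In whole embryos fewer cells of a type and less RNA per cell cannot be told apart. The study reports that TKD embryos arrested without entering gastrulation and showed no sign of cell involution. TKD and control embryos were thus not matched in development, and the part of this arrest in the differences below was not tested. Nothing in the labels tells whether both samples of a group came from different clutches, and p-values therefore measure only the spread between these samples, which may be technical.

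The 3 reagents that define the TKD group are shown here 5′ to 3′, as the labels give them. Capitals mark the central bases joined by unmodified linkages, the stretch at which RNase H can cut the mRNA, and lower case marks the flanks with modified linkages.
TBPAS3 (against TBP): tgcatTTCGCGCTctaag
TBP2-AS167 (against TBP2): tcatcGTATGGAgtcat
TLF-AS93 (against TLF): atatcCAGTGCCacatc

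In the gastrula, BMP ligands bind pairs of type I and type II receptors, the type I receptor phosphorylates Smad1, Smad5 or Smad9, and these enter the nucleus with Smad4 to switch on ventral and epidermal genes. Dorsally, the Spemann-Mangold organizer secretes Chordin and Noggin, which bind BMPs and block them. Tolloid-like proteases cut Chordin and free the ligand, and Sizzled inhibits these proteases. Many components of the ventral side are themselves BMP targets, among them bmp4, bambi, sizzled, smad6 and smad7, so that the pathway carries positive and negative feedback.

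The deposited means allowed the reads of each library to be recovered: 2523060 and 1414476 for TKD and 5222085 and 3436848 for control embryos, with the libraries called deeper and shallower within each group. These are the reads of the genes with a unique solution in both groups. Genes with a unique solution in TKD embryos carry 94.6% of all signal there. Those with a unique solution in control embryos carry 89.2% of the signal there. Values below are normalized counts, that is reads divided by the size factor of the library, and are not corrected for gene length. Of the targeted genes, tbp.S was at 32.9 and 19.8 normalized counts in the deeper and shallower TKD library, against 57.8 and 87.7 in the control pair (log2 fold change −1.31, limma-voom adjusted p = 0.0943). The copy tbp.L was at 10.3 and 11.6 against 12.2 and 23.5 (adjusted p = 0.638, limma). For tbpl2.L (TBP2) 5, 1, 13 and 4 reads were too few for a test, and no row was matched for TLF. Defining genes of the organizer, mesoderm, endoderm and ectoderm were present in control embryos, and markers of later tissues summed to between 16.0 and 33.1 normalized counts in all 4 libraries. Maternal and oocyte transcripts summed to 10740 and 10310 normalized counts in TKD and 5459 and 6152 in control libraries. Organizer markers summed to 1980 and 1794 in TKD and 1408 and 1345 in control libraries. This sum and the next 2 join opposite changes of single genes, called at a limma-voom adjusted p under 0.1. Of the 9 organizer rows tested, 6 rose (66.7%, against 10.3% of all genes) and 1 fell (11.1%, against 14.3%). Levels of gsc.L were 315 and 362 against 36 and 36.8, and those of frzb.L 153 and 147 against 405 and 336. Mesoderm markers, szl among them, summed to 1624 and 1406 against 1857 and 1863. Sums of endoderm markers overlapped, at 8739 and 6613 against 4875 and 6911. Of the 15 endoderm rows tested, 3 rose (20%, against 10.3% of all genes) and 2 fell (13.3%, against 14.3%). Of the 2, 1 reached the reads needed for a test only in control libraries. Levels of mix1.L were 929 and 694.5 against 157.7 and 208.3, and those of darmin.L 6.58 and 8.27 against 250 and 217. Ectoderm markers, all of them rows of dlx3, foxi and keratin genes, summed to 1988 and 1802 in TKD and 5290 and 5125 in control libraries.

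Of the 79 rows, 56 had at least 10 reads in at least 2 libraries and were tested. At an adjusted p under 0.1, the false discovery rate used in the study, 9 of the 56 were lower in TKD embryos (16.1%) and 4 were higher (7.14%). Over all 17026 genes tested, 14.3% were lower and 10.3% were higher, so both shares of the BMP pathway lay near those of all genes. One of the 9, id4.S, met the read filter only through the control group, where it was high, and so could only be called lower. Without genes that met the filter through 1 group only, 8 of 55 members (14.5%) and 13.4% of all genes were lower. Levels of 23 of the 56 were lower in both TKD libraries than in both control libraries (41.1%, against 30.7% of all genes), 13 were higher in both (23.2%, against 29.9%), and 20 overlapped. The median log2 fold change was −0.25 over the 56 members and 0.04 over all genes. The 9 that fell encode the ligand bmp4.S, the Chordin proteases tll1-like.1.1, tll1-like.1.S and tll2-like.1.L, the protease inhibitor szl.L, the receptor acvr2a.S, the pseudoreceptor bambi.L and the target regulators id4.S and msx2.L. The 4 that rose encode the ligands bmp2.L and bmp15.L, the effector smad1.L and the inhibitory smad7-like.L.

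These counts depended on the pairing and the scaling, and single calls depended on the libraries. The labels number the samples 1 and 2 in each group, but the recovered libraries carry no number. Paired deeper with deeper library in a replicate block, 1 member was lower (tll1-like.1.S) and 0 higher, so 12 of the 13 calls were lost. Over all genes, 6.92% were then lower and 2.75% higher. Paired deeper TKD with shallower control, 15 members were lower and 10 higher, against 22.1% and 21.2% of all genes. Without the deeper or the shallower TKD library, the median log2 fold change of the members was −0.21 or −0.15. It was −0.19 or −0.23 without the deeper or the shallower control library. The medians of all genes then lay between 0.03 and 0.06. Scaling by library totals instead of the authors' size factors raised the median of all genes by 0.18 (log2). The totals used for this scaling counted only genes with a unique solution in both groups. With that scaling the same 9 members were lower and 9 were higher, against 11.6% and 16.2% of all genes. Because the higher calls went from 4 to 9 while the lower calls stayed at 9, the lower share of calls went from 69.2% to 50% for the members. It went from 58.2% to 41.9% for all genes. The median of the members lay 0.29 below that of all genes with either scaling. A change of scaling shifts every gene by nearly the same amount, so this gap could hardly change. Without each library in turn, the median of the members lay 0.20 to 0.28 below that of all genes.

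**Figure D1:**
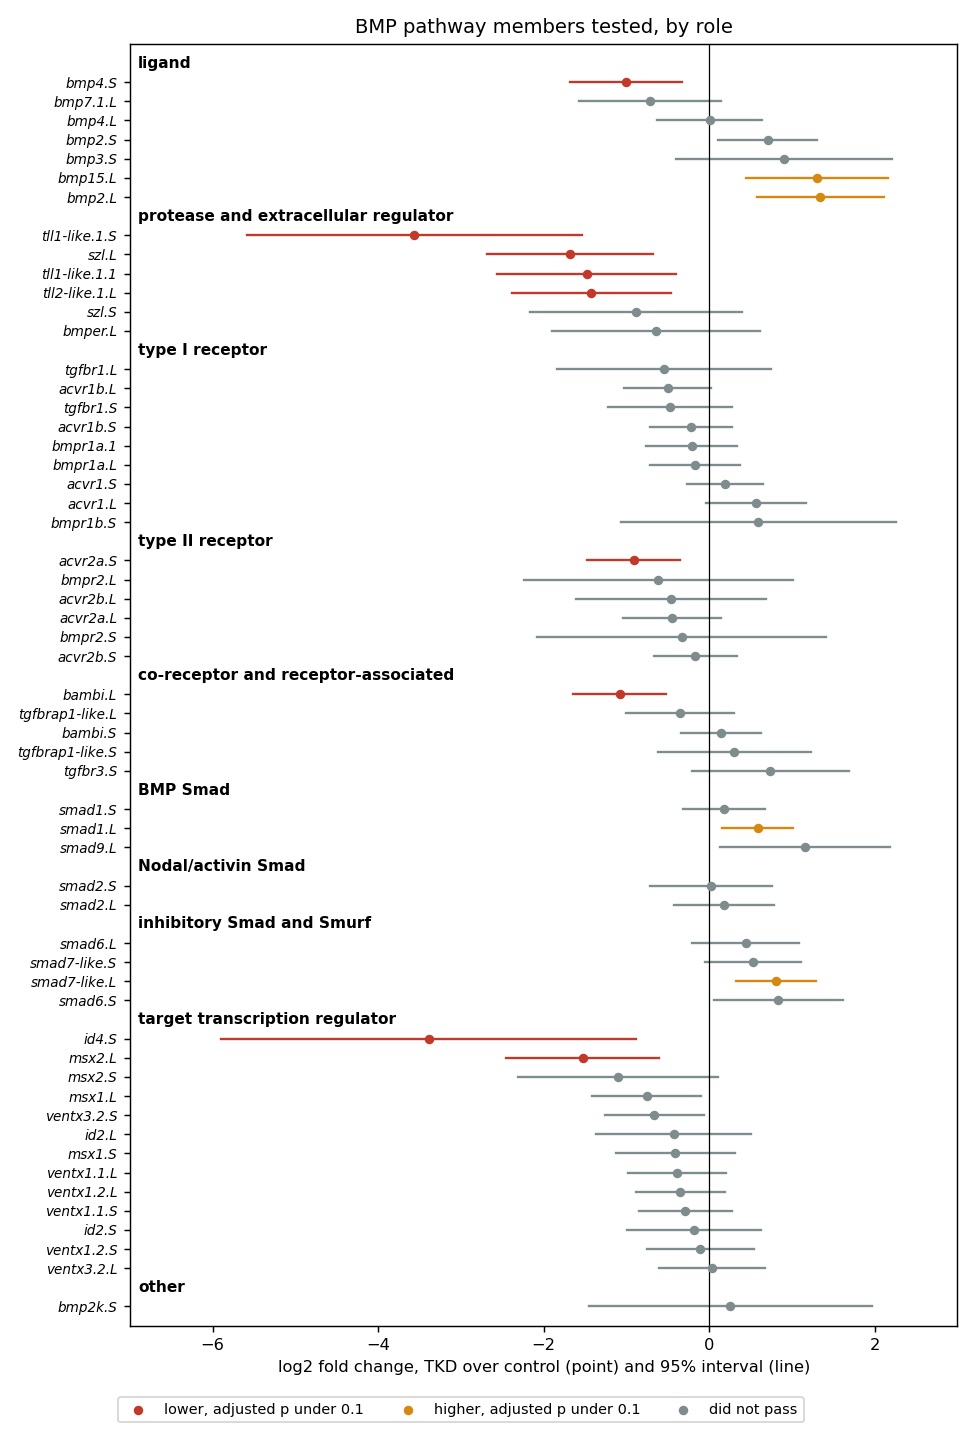
Log2 fold change of TKD over control (horizontal axis) for the 56 BMP pathway members tested, grouped by role, with points for the limma-voom estimate and lines for its 95% interval. The 9 members called lower include 4 of the 6 extracellular proteases and regulators, where 14.3% of all genes were lower. None of the 9 type I receptors was called, and all 4 inhibitory Smads lie to the right of 0.

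Among the ligands, bmp4.S fell and bmp2.L rose. Bmp4, the main ventralizing ligand of the frog gastrula, was measured for both copies: bmp4.S was at 94.0 and 61.2 normalized counts in TKD and at 170.4 and 149.5 in control libraries, a log2 fold change of −1.01 (SE 0.29, limma-voom adjusted p = 0.0555). The groups did not overlap. The call was lost without the deeper TKD library (adjusted p = 0.109, limma), the shallower TKD library (0.207) or the deeper control library (0.107). The copy bmp4.L was at 102 and 149 in TKD and 112 and 128 in control libraries, with overlapping groups (log2 fold change 0.01, 95% interval −0.63 to 0.64). Its sign turned to −0.01 with sizes scaled by medians of ratios. The copies were not shown to differ (ratio of L to S, adjusted p = 0.198, limma).

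Bmp2 is closely related to Bmp4, and in the frog its mRNA is supplied by the egg. Levels of bmp2.L were 72.4 and 69.5 normalized counts in TKD and 26.9 and 29.8 in control libraries, 2.5-fold apart with little spread within a group (log2 fold change 1.34, SE 0.33, limma-voom adjusted p = 0.0338). The copy bmp2.S was also above control in both TKD libraries, at 117 and 109 against 71.5 and 67.3, and did not pass (0.71, adjusted p = 0.106, limma). With library totals it passed (0.0531). Bmp15, an ovarian ligand in mammals, was read from bmp15.L at 56.4 and 79.4 in TKD and 23.3 and 30.5 in control libraries (2.52 times the control mean, adjusted p = 0.0525, limma), while bmp15.S had 1 read in all 4 libraries together. The call for bmp2.L was lost without the deeper TKD library (adjusted p = 0.149, limma) or the deeper control library (0.107). That for bmp15.L was lost without the shallower TKD library (0.187) or the deeper control library (0.186). Of the 22 maternal and oocyte genes tested that are not members, 13 rose (59.1%, against 10.3% of all genes) and 1 fell (4.55%, against 14.3%). The median log2 fold change of the 22 was 0.79. The part of a higher maternal share in the bmp2 and bmp15 values was not tested.

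The remaining ligands showed no call. Bmp7, which pairs with Bmp4 in heterodimers, was at 32.9 and 36.4 normalized counts in TKD and 63.4 and 49.3 in control libraries for bmp7.1.L (log2 fold change −0.72, limma-voom adjusted p = 0.225). Its copy bmp7.1.S had no read in either TKD library and 1 and 5 reads in the control libraries. Levels of bmp3.S were 26.3 and 16.5 against 9.64 and 16.4, so the groups nearly touched (log2 fold change 0.91, adjusted p = 0.306, limma). Reads of bmp5, bmp6, bmp8, bmp10 and bmp3.L reached at most 9 in any library, and bmp5.S, bmp6.L, bmp8.L, bmp8.S and bmp10.S had none.

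The extracellular proteases and their regulators formed the class with the lowest median, −1.45 over 6 members, of which 4 fell (66.7%, against 14.3% of all genes) and none rose. The 3 tolloid-like rows all fell. Levels of tll1-like.1.S were 12.2 and 3.31 normalized counts in TKD and 123 and 72.0 in control libraries, 7.98% of the control mean. Its log2 fold change was −3.56 (SE 0.88, limma-voom adjusted p = 0.0334), and it was the only member of the 13 called that kept its call in every alternative and without each library in turn. The TKD libraries of tll1-like.1.1 stood far apart, at 67.7 and 19.8, with control libraries at 121 and 119.8 (log2 fold change −1.48, SE 0.47, adjusted p = 0.0697, limma). Without the shallower TKD library this change was −0.83 (adjusted p = 0.216, limma), and without the deeper one it was −2.55 (0.032). For tll2-like.1.L the values were 19.8 and 31.4 against 68.0 and 59.5 (log2 fold change −1.43, SE 0.42, adjusted p = 0.0555, limma), and the call was lost without the deeper TKD library (0.314) or the shallower one (0.103).

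Sizzled (szl), a secreted Frizzled-related protein of the ventral side, fell in its L copy. Levels of szl.L were 25.4 and 48.0 normalized counts in TKD and 125 and 84.6 in control libraries, 35.0% of the control mean (log2 fold change −1.68, SE 0.43, limma-voom adjusted p = 0.0386). Without the deeper TKD library its change was −1.12 (adjusted p = 0.257, limma). The S copy was at 13.2 and 36.4 against 42.6 and 28.2, with overlapping groups (adjusted p = 0.309, limma). Bmper, a Chordin-like BMP binding protein also called crossveinless, was lower in both TKD libraries, at 13.2 and 13.2 against 19.8 and 23.5 for bmper.L, and its interval reached from −1.90 to 0.61.

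**Figure D2:**
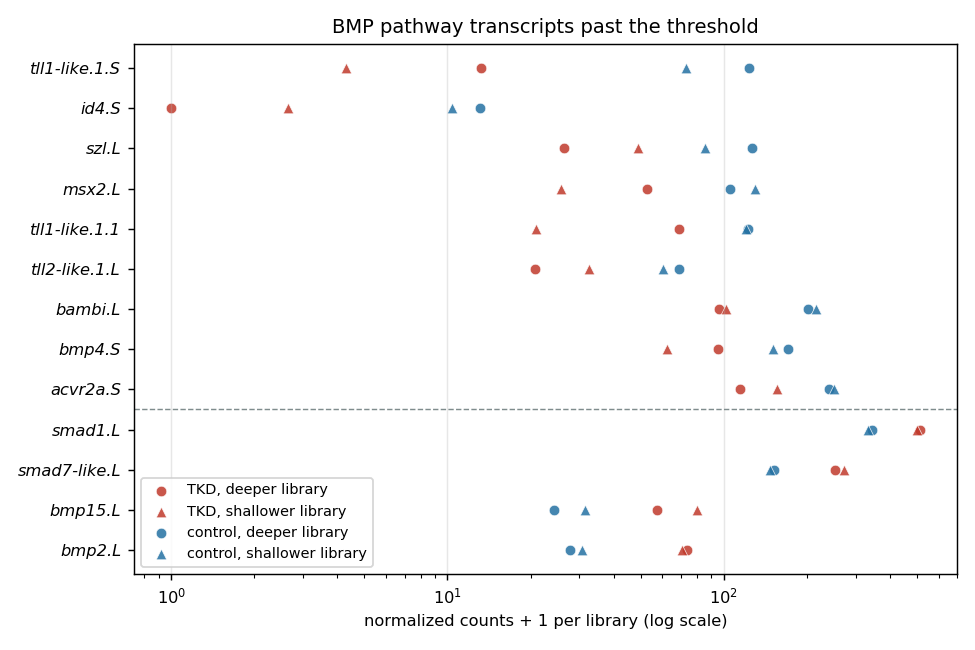
Normalized counts plus 1 (log scale) of the 13 members past the threshold, one row each, with red for TKD and blue for control, circles for the deeper and triangles for the shallower library of a group. The 9 rows above the dashed line are lower in TKD and the 4 below it are higher, and in every row both TKD libraries lie on the same side of both control libraries. The rows were picked by adjusted p from these same values, so this separation is no added evidence.

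Against 14.3% lower and 10.3% higher of all genes, none of the 9 type I receptor rows tested passed the threshold. Their median log2 fold change was −0.21, and their estimates ran from −0.55 to 0.59. Bmpr1a, a type I receptor for Bmp2 and Bmp4, was at 276 and 195 normalized counts in TKD and 295 and 256 in control libraries for bmpr1a.1 (log2 fold change −0.21, 95% interval −0.76 to 0.34). For bmpr1a.L, a separate row, the interval was −0.71 to 0.38, and its sign turned with scaling by library totals (0.01). Acvr1, a type I receptor that also signals through the BMP Smads, was at 498 and 420.0 against 389 and 419.7 for acvr1.S (limma-voom adjusted p = 0.542). Levels of acvr1.L were above control in both TKD libraries (228 and 159 against 143 and 119.8, adjusted p = 0.179, limma). With library totals acvr1.L passed (0.0846). The Nodal and activin receptor acvr1b was below control in both copies, at 196 and 177 against 219.6 and 218 for acvr1b.S and at 158 and 134 against 206 and 213 for acvr1b.L, with adjusted p-values of 0.519 and 0.173 (limma). The TGF-beta receptor tgfbr1 had log2 fold changes of −0.55 for L and −0.47 for S, neither past the threshold.

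One type I receptor row stood out among those under the read filter. Bmpr1b.L had 24 reads in the deeper and 4 in the shallower TKD library and 2 in each control library, a ratio of 13.6 once library sizes were taken into account (exact conditional 95% interval 4.77 to 53.5). This interval covers counting error only, not the spread between embryos, and 24 of the 28 TKD reads came from 1 library. Its copy bmpr1b.S was tested, at 9.40 and 14.9 against 5.58 and 11.7, with overlapping groups (limma-voom adjusted p = 0.608). Acvr1c and acvrl1, the other type I receptors, had at most 4 reads in any library.

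Of the 6 type II receptor rows tested, 1 passed (16.7%, against 14.3% of all genes lower), and the fitted log2 fold changes ran from −0.91 to −0.17. The one that passed was acvr2a.S, a receptor for activin that also binds BMPs, at 114 and 155 normalized counts in TKD and 239.9 and 249.8 in control libraries (log2 fold change −0.91, SE 0.24, limma-voom adjusted p = 0.0433). Both TKD libraries lay well below control, but without the deeper one the call was lost (adjusted p = 0.28, limma). Levels of acvr2a.L were 212 and 137 against 237 and 245 (−0.45, adjusted p = 0.266, limma). Acvr2b.S was at 179 and 172 against 195 and 201, and its direction turned with library totals (0.01). For acvr2b.L the values were 27.3 and 13.2 against 28.4 and 31.3, and the interval was −1.61 to 0.69. Bmpr2, the type II receptor specific to BMPs, was low in every library, between 6.61 and 36.4 normalized counts over both copies, and its copies had adjusted p-values of 0.588 and 0.795 (limma). Levels of bmpr2.S were 8.46 and 36.4 against 26.4 and 10.96. Its fitted change of −0.33 went against its group means, with TKD at 120% of control, and turned to 1.02 when the deeper TKD library was left out and to 0.31 when the deeper control library was. The rows of tgfbr2 had no read in TKD libraries and at most 4 in a control library.

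Bambi is a receptor-like membrane protein without a kinase domain that blocks BMP signalling, and its mRNA is made where BMP signals. Of the 2 copies, only bambi.L was called lower. Levels of bambi.L were 94.97 and 101 normalized counts in TKD and 200.3 and 215 in control libraries (log2 fold change −1.08, SE 0.24, limma-voom adjusted p = 0.0247), the lowest adjusted p among the members. Without the deeper TKD library its adjusted p was 0.147 (limma) with a nearly equal change of −1.03. Levels of bambi.S were 228 and 208 against 204 and 193 (log2 fold change 0.14, 95% interval −0.34 to 0.63). Of the other receptor-associated rows, tgfbr3.S (betaglycan, a co-receptor of TGF-beta) was at 79.9 and 38.0 against 34.5 and 38.4, and tgfbrap1-like.L at 92.1 and 132 against 151 and 121, both with overlapping groups. Tgfbrap1-like.S had an interval of −0.62 to 1.23. No read of tgfbr3.L was found in TKD libraries, against 4 and 2 reads in control libraries.

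Of the 9 Smad rows tested, 2 rose and none was called lower, where 10.3% of all genes were higher and 14.3% lower. Smad1, the receptor-activated Smad of the BMP branch, was at 512 and 501.0 normalized counts in TKD and 344 and 331 in control libraries for smad1.L, 1.5-fold higher with little spread (log2 fold change 0.59, SE 0.19, limma-voom adjusted p = 0.0704). The estimate stayed between 0.56 and 0.61 without each library in turn, but the call was lost in each case: adjusted p was 0.228 without the deeper and 0.169 without the shallower TKD library, and 0.195 and 0.177 without the deeper and shallower control library (limma). The copy smad1.S was at 313 and 384 against 329.6 and 276, with overlapping groups (0.18, adjusted p = 0.6, limma). Smad9.L, the other BMP Smad tested, was at 51.7 and 89.3 against 21.8 and 42.3 (log2 fold change 1.16, SE 0.45, adjusted p = 0.118, limma). Its copy smad9.S fell under the filter with 13 and 8 reads in TKD and 5 and 6 in control libraries, a ratio of 3.72 (exact conditional 95% interval 1.71 to 8.54, counting error only). Smad2, the Smad of Nodal and activin, overlapped between groups in both copies. Smad2.L was at 152 and 182 against 167 and 121, and smad2.S at 85.6 and 56.2 against 67.4 and 78.3. The sign of smad2.S, 0.02, turned to −0.00488 with medians of ratios.

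The inhibitory Smads compete with the effector Smads and target the receptors for breakdown. All 4 rows were above control in both TKD libraries, as were 29.9% of all genes. Of the 4, 1 passed (25%, against 10.3% of all genes higher), and their median log2 fold change was 0.67. Smad7-like.L was at 251 and 271 normalized counts in TKD and 151 and 146 in control libraries (log2 fold change 0.80, SE 0.21, limma-voom adjusted p = 0.0405). Its call was lost without the deeper (adjusted p = 0.12, limma) or the shallower TKD library (0.132). Levels of smad7-like.S were 145 and 164 against 117 and 93.2 (adjusted p = 0.193, limma). Smad6.S was at 85.6 and 57.9 against 38.5 and 45.4 (adjusted p = 0.133, limma), and smad6.L at 102 and 109 against 88.2 and 65.8 (adjusted p = 0.32, limma). With library totals 3 of the 4 were higher, all but smad6.L, against 16.2% of all genes. With that scaling smad1.L and smad9.L passed as well.

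Among the nuclear targets, 2 of the 13 rows tested fell (15.4%, near the 14.3% of all genes) and none rose, and the median log2 fold change was −0.41. One of the 2 is id4.S, and without it 1 of 12 fell. Msx2, a homeobox repressor of the ventral and lateral ectoderm and mesoderm, was at 51.7 and 24.8 normalized counts in TKD and 104 and 129 in control libraries for msx2.L, 32.8% of the control mean (log2 fold change −1.53, SE 0.40, limma-voom adjusted p = 0.0412). Without the shallower TKD library the change was −1.14 (adjusted p = 0.138, limma). Levels of msx2.S were 25.4 and 23.2 against 71.0 and 36.8, also below control in both libraries (−1.10, adjusted p = 0.19, limma). Msx1.L was at 110.0 and 76.1 against 147 and 180.1 (−0.76, adjusted p = 0.112, limma), and msx1.S overlapped (−0.41).

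Id proteins bind basic helix-loop-helix factors and keep them from DNA. Only 1 read of id4.S was found over both TKD libraries, against 24 and 12 in control libraries, a ratio of 0.0541 (exact conditional 95% interval 0.00133 to 0.321, counting error only). The limma-voom adjusted p of id4.S was 0.0726. It was 0.117 without the deeper TKD library, and without either control library the gene fell under the read filter, which it met only through the control group. The copy id4.L had 2 reads in all. Id2 was at 29.1 and 54.6 against 45.1 and 57.9 for id2.L and 45.1 and 38.0 against 52.2 and 43.8 for id2.S, and both copies overlapped between groups.

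The ventx genes encode homeobox repressors of dorsal genes and are textbook direct targets of BMP Smads. None of the 6 ventx rows tested passed, where 14.3% of all genes were lower and 10.3% higher. The median log2 fold change of the 6 rows was −0.32, with estimates from −0.66 to 0.03. Ventx1.2.L was at 354 and 269.5 normalized counts in TKD and 355 and 453 in control libraries (log2 fold change −0.35, limma-voom adjusted p = 0.34). Ventx1.1.S was at 249 and 175 against 244 and 285 (−0.29, 95% interval −0.85 to 0.27). Ventx1.2.S was at 162 and 139 against 136 and 204, and its direction turned with library totals (0.07). The lowest estimate was that of ventx3.2.S, at 119 and 107 against 204 and 159 (−0.66, adjusted p = 0.122, limma), while ventx3.2.L was at 75.2 and 92.6 against 78.1 and 83.0. The row ventx3.1.S had 3 reads in all. In the gene order of RefSeq assembly Xenopus_laevis_v10.1, ventx3.2, ventx1.2 and ventx1.1 lie in 1 cluster with ventx2.2 and ventx2.1 on chromosomes 7L and 7S, with 0 and 1 other protein-coding genes between them.

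The last member, bmp2k, encodes a kinase named for its induction by BMP2. Bmp2k.S was at 14.1 and 9.92 normalized counts in TKD and 7.10 and 19.6 in control libraries (limma-voom adjusted p = 0.841), and bmp2k.L had 2 reads. In all, 23 of the 79 rows fell under the read filter. Of these, 6 had no read in any library, 8 had reads in control libraries only and 3 in TKD libraries only. Control libraries held more reads (5222085 and 3436848) than TKD libraries (2523060 and 1414476). Reads in control libraries only therefore do not show a lower level in TKD embryos. The same split was not counted over all genes.

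Of 36 pairs with an L and an S row, 21 had both copies tested. In 8 of the 21 pairs 1 copy was called (38.1%, against 28.6% of all 3669 pairs tested), and in none were both called (11.9% of all pairs were, in the same direction). The median difference between copies was 0.37 (log2, regardless of sign) and the highest 1.22. Whether the ratio of L to S differed between TKD and control embryos was tested with limma over the same 3669 pairs, a test chosen after the data were seen. It differed at an adjusted p under 0.1 in 6.92% of all pairs and in 1 of the 21 BMP pathway pairs, bambi. The ratio of bambi.L to bambi.S was 0.419 and 0.486 in TKD and 0.980 and 1.11 in control libraries, a difference of −1.22 in log2 (95% interval −1.90 to −0.55, limma adjusted p = 0.0648). Because the ratio is taken within a library, it does not depend on how libraries are scaled. Without the deeper TKD, shallower TKD or shallower control library the adjusted p of bambi was 0.321, 0.212 or 0.113 (limma), with differences between −1.10 and −1.31. For bmp4 the ratio was 1.08 and 2.41 in TKD and 0.655 and 0.854 in control libraries (1.01, 95% interval 0.10 to 1.92), which did not pass after adjustment (adjusted p = 0.198, limma). The other 19 pairs had adjusted p-values of 0.311 and above (limma). A called copy of bmp4, msx2, szl, bmp2, smad1, acvr2a or smad7-like was thus not shown to differ from its partner. How reads that match both copies were counted is not given in the sources used here, so values of near-identical copies are uncertain.

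**Figure D3:**
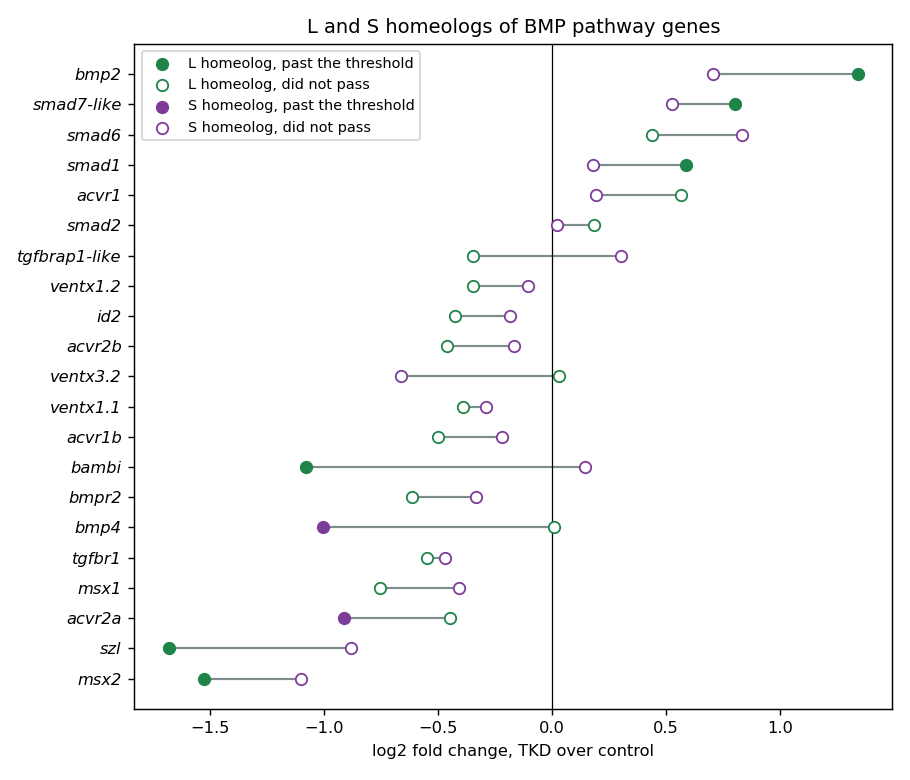
Log2 fold change of TKD over control (horizontal axis) for the L (green) and S (purple) copies of the 21 pairs in which both were tested, joined by a line, with filled points past the threshold and open points not. In 8 pairs 1 point is filled and in none both are, and the longest line is that of bambi, from −1.08 for L to 0.14 for S.

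Other genes around the pathway were read from lists that hold no members. For extracellular BMP antagonists and modulators, 19 of the 28 symbols listed had a row. No row was matched for Chordin (chrd), which is not analysed here. Of the 16 rows tested, 2 fell (12.5%, against 14.3% of all genes) and 3 rose (18.8%, against 10.3%), with a median log2 fold change of 0.06. These 5 were named after their values were seen. Noggin (nog.L), a BMP antagonist of the organizer, was at 71.5 and 62.8 normalized counts in TKD and 34.5 and 25.8 in control libraries (log2 fold change 1.15, limma-voom adjusted p = 0.0607). The other risers were both copies of the secreted Frizzled-related sfrp2, with adjusted p-values of 0.0518 for sfrp2.L and 0.0176 for sfrp2.S (limma). The share of 18.8% is therefore not one of BMP antagonists alone. The fallers were frzb.L, a Wnt antagonist (153 and 147 against 405 and 336), and tsku.S, which binds BMP with Chordin (891 and 1032 against 1479 and 1614). Their partner copies frzb.S and tsku.L did not pass, with log2 fold changes of −0.22 and −0.19. Of 5 further BMP-type and GDF ligand rows tested, 2 rose (40%, against 10.3% of all genes) and 1 fell. The risers were both copies of admp, an organizer ligand of the BMP type: admp.S was at 1076 and 645 against 236 and 304, and admp.L at 414 and 309 against 183 and 266. The faller, gdf6.S, had no read in TKD libraries and 9.64 and 7.83 normalized counts in control libraries. It met the read filter only through the control group and could only be called lower, and without it none of 4 rows fell.

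A list of ventral and epidermal genes, put together as downstream of BMP, mostly fell. For this list, 17 of the 28 symbols listed had a row. It also holds cdx4, sp5 and wnt8a, so its shares are not those of BMP targets alone. Apart from cdx4, sp5 and wnt8a.S, every row that fell was of a dlx, foxi or keratin gene. The ventral gene evx1.L did not pass (limma-voom adjusted p = 0.102), and hand2 had too few reads for a test. The part of BMP signalling in these values was not tested. Of 28 such rows tested, 18 fell (64.3%, against 14.3% of all genes) and 1 rose (3.57%, against 10.3%), with a median log2 fold change of −1.25, beside −0.41 for the 13 nuclear targets among the members. Whether those lists differ was not tested. Of the 18, 7 met the read filter only through the control group, and without such rows 11 of 19 fell (57.9%, against 13.4% of all genes). Their summed level was 2409 and 2031 normalized counts in TKD and 5332 and 5395 in control libraries. The exception that rose was wnt8a.L, a ventral mesoderm Wnt, at 560.4 and 486 against 246 and 299.9 (limma-voom adjusted p = 0.0218), whereas wnt8a.S fell (123 and 111 against 180.0 and 205, adjusted p = 0.0898, limma). For the ectoderm markers, no row was matched for sox2, sox3, tfap2a or grhl1. The 10 rows tested were of dlx3, foxi and keratin genes and do not stand for the whole ectoderm. Of these 10, 9 fell (90%, against 14.3% of all genes), 3 of which met the filter only through the control group. Without such rows 6 of 7 fell (85.7%, against 13.4% of all genes). The ectoderm list shares rows of dlx3, foxi and keratin genes with this list, so the 2 counts are not separate.

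**Figure D4:**
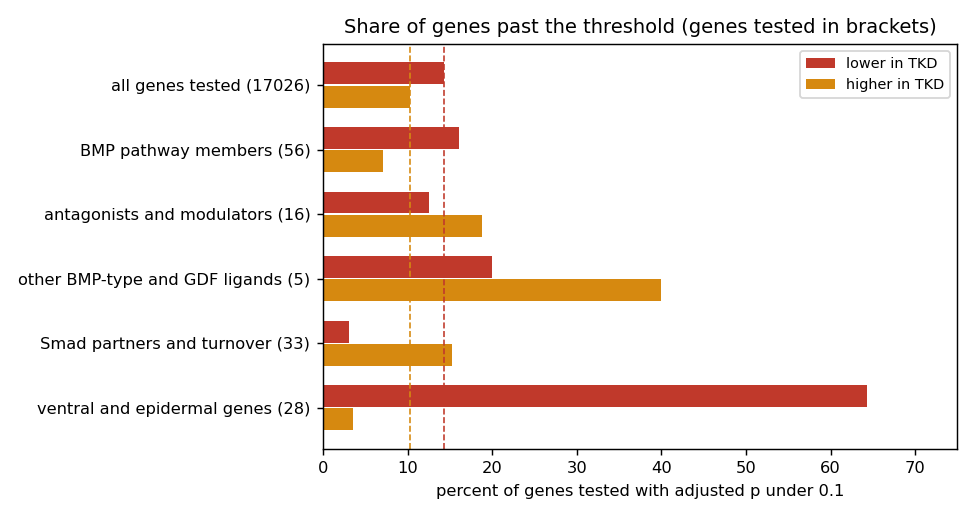
Percent of genes tested that were lower (red) or higher (orange) in TKD at an adjusted p under 0.1, for all genes, the BMP pathway members and 4 lists that hold no members, with the number tested in brackets and dashed lines at the shares of all genes. The members, at 16.1% lower and 7.14% higher, lie near the lines at 14.3% and 10.3%, and the ventral and epidermal genes reach 64.3% lower.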

How the data were processed

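RNA of 4 pools of 10 embryos, depleted of ribosomal RNA, was sequenced (75 nt single-end reads) and mapped by the authors to genome assembly JGI 9.1 with STAR, 1 mismatch allowed. STAR and DESeq are the tools in the submitters' processing notes, with no version, and which program counted reads per gene is not stated in what was read here. The deposited table gives, per gene, the signal averaged by the authors over the 2 libraries of a group, as read counts divided by DEseq size factors. It also holds the authors' log2 fold changes and p-values, which were not used.

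Each such mean is built from whole reads of 2 libraries, and solving for these gave the size factors (1.06 and 0.605 for TKD, 1.97 and 1.28 for control) and the reads of each library. The solution was unique for 45094 of 45098 genes in TKD and 45088 in control samples, holding 94.6% and 89.2% of the signal, and residuals did not exceed 5.4e-09 where a mean was below 100. The recovered libraries carry no replicate number. Genes that reached 10 reads in 2 or more libraries were tested with limma-voom (limma 3.58.1, R 4.3.3, Benjamini-Hochberg adjustment over all genes tested, threshold 0.1). The recovery of reads, the limma-voom fit and the test of L to S ratios were checked on simulated data. The design had assumed counts per library or a test on means. A ratio with few reads was given with an exact conditional 95% interval, for counting error only. The log2 ratio of L to S, weighted by voom, was tested over all pairs with both copies tested. Python 3.11.15, NumPy 2.4.6, pandas 2.3.3 and matplotlib 3.10.9 served for the rest.

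Members were matched by symbol without .L or .S. Named with values were all members past the threshold and their homeologs, in each role class the 3 members with the highest means that did not pass, and others where a sentence needed them. The members and lists were chosen with earlier results of these data known. Alternatives were other scaling, filters, pseudocounts, thinning, a replicate block, L and S added up, a threshold of 0.05 and leaving out each library. Counts without the genes that met the read filter through 1 group only were added after the data were seen. Promoter motifs were not searched.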

Additional observations from a re-analysis of the deposited data

How the results depend on the processing

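With 2 libraries per group, calls rested on the spread of single libraries. Leaving out each library in turn gave 3 to 10 members lower, 1 to 4 higher and a median log2 fold change of −0.23 to −0.15. The lone sample of a group was then assumed to vary like the other group. Without either TKD library or without the deeper control library, the shares of all genes called lower or higher became smaller as well. The loss of calls in these fits was therefore not particular to the members. With library totals 9 members were lower, 9 higher and the median was −0.0756. At an adjusted p under 0.05 (limma-voom), 5 members were lower and 2 higher, against 9.6% and 5.27% of all genes. Since the libraries carry no replicate number, the replicate block was fitted for both possible pairings: pairing the deeper TKD with the deeper control library gave 1 lower and 0 higher, and pairing it with the shallower control library gave 15 lower and 10 higher. Over all genes these fits called 1178 and 468, or 3767 and 3616, in place of 2438 and 1749. The deviations of paired libraries correlated at −0.495 in the first pairing and 0.495 in the second. With 2 libraries per group these are 1 value with its sign turned, which does not say which pairing is true. Medians of ratios, no filter, a mean of at least 50, limma-trend with pseudocounts of 1 and 10, and thinning all libraries to 1414476 reads each gave 9 or 10 lower and 4 or 5 higher. Over all genes, these settings called 9.1% to 20.8% lower and 6.1% to 15.3% higher. Adding up L and S gave 6 lower and 5 higher of 35, against 15% and 10.9% of all genes. Of the 13 calls, 1 (tll1-like.1.S) held under every alternative that tests copies singly, and without each library. The sign of the fitted change turned under at least 1 alternative, or with the ratio of group means, for 13 of the 56 members, none of them called. The ratio of bambi copies kept its direction without each library.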

Other observations

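Nuclear partners of Smads and the genes of Smad turnover were not part of the comparisons above. Of 33 such rows tested, 5 rose (15.2%, against 10.3% of all genes) and 1 fell (3.03%, against 14.3%), with a median log2 fold change of 0.19. In 14 rows both TKD libraries were above control (42.4%, against 29.9% of all genes). The 6 were named after their values were seen. Foxh1, a forkhead partner of Smad2 at Nodal targets, rose in both copies. Foxh1.L was at 662 and 718 normalized counts in TKD and 336 and 267 in control libraries (log2 fold change 1.19, limma-voom adjusted p = 0.00986), and foxh1.S at 89.3 and 84.3 against 53.8 and 40.7 (0.87, adjusted p = 0.0918, limma). Tgif1.L, a homeobox repressor that binds Smads, was at 207 and 248 against 97.9 and 116 (adjusted p = 0.0229, limma). The ubiquitin ligases wwp2.S (82.7 and 79.4 against 34.5 and 43.1) and stub1.S (122 and 119 against 69.5 and 57.2) rose as well. Tob1.S, which in mammals binds BMP Smads and represses them, was at 19.8 and 14.9 against 48.7 and 43.8 (adjusted p = 0.0882, limma). The partner copies tgif1.S, wwp2.L, stub1.L and tob1.L did not pass, with log2 fold changes of 0.74, 0.41, 0.02 and 0.54. That of tob1.L thus went against the direction of tob1.S.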
